A study of Danio rerio with 6 samples.

Results

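The Sm and LSm ring genes were examined in whole zebrafish embryos by poly(A)-selected RNA sequencing. The members were 10 genes taken by name from the deposited gene table, snrpb, snrpd1, snrpd2, snrpd3, snrpe, snrpf, snrpg, lsm2, lsm4 and lsm7. Of these 10 names, 9 matched a row among the 25432 genes of the table, and 8 passed the filter on low counts. Control embryos had received a control morpholino (control-MO) and were set against embryos that had received one directed at wbp11 (wbp11-MO), with 3 libraries per group. Morpholinos are synthetic antisense oligomers that hide either the start codon or a splice site of an RNA. Every library came from a pool of 50 embryos collected 72 hours after fertilization, and the labels name no strain, dose or morpholino sequence. Both groups thus carried a morpholino, and the labels name no mutant.

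Sm proteins are small proteins that share one fold and assemble side by side into a ring of 7 different subunits, B, D1, D2, D3, E, F and G. The ring closes around a uridine-rich stretch of the U1, U2, U4 and U5 small nuclear RNAs and forms the core of the spliceosomal particles (snRNPs). LSm proteins ("like Sm") build related rings. The nuclear ring holds LSm8 and binds the end of U6 RNA, whereas the cytoplasmic ring holds LSm1 in its place and promotes decapping of messenger RNAs. The other 6 subunits, LSm2 to LSm7, are common to both. Small nuclear RNAs carry no poly(A) tail, so only the messenger RNAs of the proteins were measured here.

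The libraries held between 11219706 and 13669995 counted reads. The targeted gene was not lower in the libraries labelled wbp11-MO. Wbp11 is a splicing factor, and the table held 2 records of that name. The one on chromosome 3 stood at 14.7, 12.4 and 17.6 CPM (counts scaled to the size of the library) in the control-MO libraries and at 23.0, 25.7 and 25.4 CPM in the others, higher by 0.72 ± 0.12 on the log2 scale (SE; adjusted p = 4.7e-06 in edgeR). The other, on scaffold KN150013.1, differed by 0.30 ± 0.16 on that scale and was not called (edgeR adjusted p = 0.10). The labels do not say which kind of block the morpholino makes, so its transcript level is no check on them. Every direction given here therefore follows the labelling. All lists of tissue markers were detected, those of skeletal muscle, epidermis, neurons, neural progenitors, cartilage, photoreceptors and red cells, as whole embryos would give, and no marker gene was at 0 in every library.

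All 8 tested ring genes rose in the libraries labelled wbp11-MO, and 4 of them, snrpd2, snrpe, snrpg and lsm7, rose at least 2-fold. With library totals as the only scaling, snrpe and snrpg stayed just under that size and 2 genes reached it. With upper-quartile scaling factors, snrpg alone of the 4 stayed under it, at a log2 fold change of 0.99. The median log2 fold change of the 8 genes was 0.96, against a median of 0.0013 over all 20012 tested genes. Called genes had an adjusted p under 0.05 in edgeR's quasi-likelihood test, with p-values adjusted over all tested genes. By that rule 61.7% of all tested genes were called, 30.5% as higher and 31.2% as lower, and 5.90% were higher with a log2 fold change of at least 1. No member was called lower. In none of the 8 genes did the CPM of the groups overlap, and 32.3% of all tested genes were likewise separated with the libraries labelled wbp11-MO on top. The tested Sm members had log2 fold changes between 0.77 and 1.08, a spread of 0.31 beside a largest SE of 0.076. A D3-like gene outside the list, snrpd3l, lay below that range at 0.48 ± 0.07 (SE). The 2 tested LSm members lay at the ends of the members' range, at 0.28 for lsm4 and 1.38 for lsm7.

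**Figure D1:**
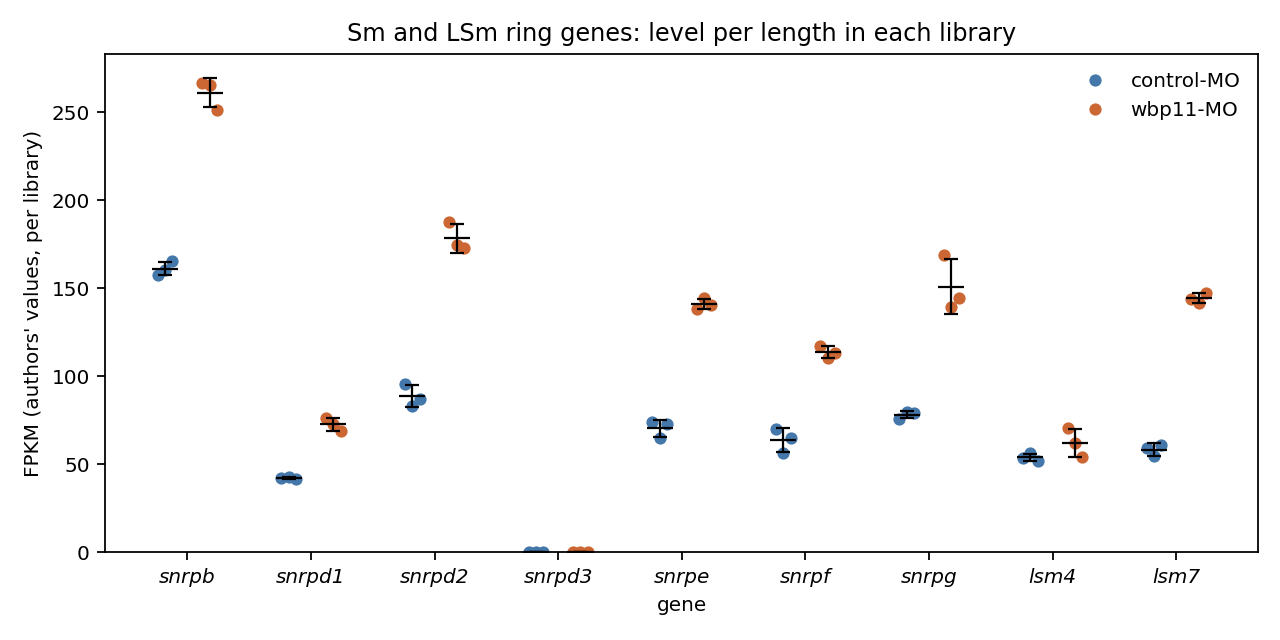
Level per length (FPKM, as deposited by the authors) of each ring gene in every library, control-MO in blue and wbp11-MO in orange. Points are libraries and bars are means ± SD (n = 3). Every tested gene was higher on average in wbp11-MO, snrpb was the most abundant in both groups, and snrpd3 lay at 0 apart from 1 count in 1 control-MO library.

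The B and D3 subunits join each other before the ring forms. The gene snrpb (ENSDARG00000011125, chromosome 6, 57478337 to 57485411, GRCz11) encodes subunit B. It stood at 149.96, 148 and 157 CPM in control-MO replicates 1, 2 and 3 and at 259, 265 and 251 CPM in wbp11-MO replicates 1, 2 and 3. Every library labelled wbp11-MO was above every control, and the spread within each group was small beside the gap. The log2 fold change was 0.77 ± 0.05 (SE; adjusted p = 5.0e-14 in edgeR), the smallest among the tested Sm members. In human cells SNRPB acts on the splicing of its own transcript by way of an exon that leads to decay, and gene-level counts do not separate such transcript forms.

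The record named snrpd3 (ENSDARG00000013800, chromosome 8, 30742898 to 30745598) had 1 count in control-MO replicate 2 and 0 in the other 5 libraries. It was not tested, and no fold is given because both groups were under a floor of 3 counts per group. It shares 2336 bases of its span, on the same strand, with the record of p2rx4b, which encodes an ATP-gated channel. The record of p2rx4b had 12 counts over the controls and 62 over the libraries labelled wbp11-MO. The rule for reads shared by overlapping records is not given in the sources used here. The low count of snrpd3 is therefore not read as absence of its transcript. A related record, snrpd3l (ENSDARG00000076283, chromosome 21, 13327527 to 13331030), described by the table as like the D3 polypeptide, was looked at after its values were seen. It stood at 36.2, 35.9 and 36.6 CPM in the controls and at 50.8, 49.3 and 51.1 CPM in the libraries labelled wbp11-MO. Its groups did not overlap, and its log2 fold change was 0.48 ± 0.07 (SE; adjusted p = 1.9e-06 in edgeR).

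The D1 and D2 subunits form another pair. The gene snrpd1 (ENSDARG00000011648, chromosome 19, 1872794 to 1877746) stood at 51.5, 50.4 and 50.4 CPM in the controls and at 94.7, 92.8 and 88.2 CPM in the libraries labelled wbp11-MO. The controls lay close together and far below the other group. The log2 fold change was 0.86 ± 0.06 (SE; adjusted p = 4.3e-13 in edgeR). The gene snrpd2 (ENSDARG00000040440, chromosome 18, 40875873 to 40884087) stood at 70.4, 59.4 and 64.2 CPM in the controls and at 141, 135 and 133 CPM in the libraries labelled wbp11-MO. The lowest of the latter was well above the highest control, and the log2 fold change of 1.08 ± 0.06 (SE; adjusted p = 1.6e-15 in edgeR) was the largest among the tested Sm genes.

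Subunits E, F and G come together as a trio. The gene snrpe (ENSDARG00000033175, chromosome 11, 37720552 to 37726201) stood at 43.5, 37.2 and 42.9 CPM in the controls and at 83.6, 89.4 and 87.1 CPM in the libraries labelled wbp11-MO, with a log2 fold change of 1.07 ± 0.07 (SE; adjusted p = 2.5e-14 in edgeR). The gene snrpf (ENSDARG00000105037, chromosome 7, 19374683 to 19378024) stood at 43.0, 33.8 and 39.9 CPM and at 73.9, 71.2 and 73.2 CPM. In snrpe and snrpf control-MO replicate 2 was the lowest library, and the groups stayed apart. The log2 fold change of snrpf was 0.90 ± 0.08 (SE; adjusted p = 1.0e-11 in edgeR). The gene snrpg (ENSDARG00000099667, chromosome 23, 33957350 to 33961989) stood at 44.1, 44.9 and 45.9 CPM and at 100.4, 85.0 and 88.2 CPM. Here wbp11-MO replicate 1 was the highest library, and the log2 fold change was 1.02 ± 0.07 (SE; adjusted p = 6.6e-14 in edgeR).

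The LSm genes differed most from each other. LSm7 belongs to both the nuclear and the cytoplasmic ring. Its gene lsm7 (ENSDARG00000058328, chromosome 22, 10752511 to 10756047) stood at 53.3, 47.4 and 54.9 CPM in the controls and at 132, 133 and 139 CPM in the libraries labelled wbp11-MO. The 3 libraries labelled wbp11-MO lay close together and far above the controls, and the log2 fold change was 1.38 ± 0.06 (SE; adjusted p = 3.8e-18 in edgeR), the largest of the members. LSm4 also belongs to both rings and, like subunits B, D1 and D3, ends in a tail rich in arginine and glycine. Its gene lsm4 (ENSDARG00000023852, chromosome 11, 6859876 to 6868474) stood at 47.5, 48.3 and 46.0 CPM in the controls and at 63.9, 57.5 and 50.3 CPM in the libraries labelled wbp11-MO. The highest control and the lowest of the other libraries were only about 2 CPM apart, and in FPKM the groups overlapped, with controls from 52.0 to 56.3 and the others from 54.1 to 70.5. The log2 fold change was 0.28 ± 0.08 (SE; adjusted p = 0.0027 in edgeR). Without wbp11-MO replicate 1 it was 0.18 and no longer called (edgeR adjusted p = 0.058; the alternatives gave 5.1e-04 to 0.058).

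No row was named lsm2. The table of gene names used for reference paired the symbol LSM2 with 2 overlapping records, smx5 (ENSDARG00000070867, chromosome 6, 28205284 to 28207746) and si:ch73-14h10.2 (ENSDARG00000103066, chromosome 6, 28205296 to 28211513), which share 2451 bases on the same strand. The record smx5 had 0 counts in every library. The record si:ch73-14h10.2 had 14, 3 and 8 counts in the controls and 21, 17 and 26 counts in the libraries labelled wbp11-MO. Counters that drop reads falling in more than 1 gene give low counts to such records, and the rule used here is not given in the sources used here, so no level of lsm2 was taken from them.

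**Figure D2:**
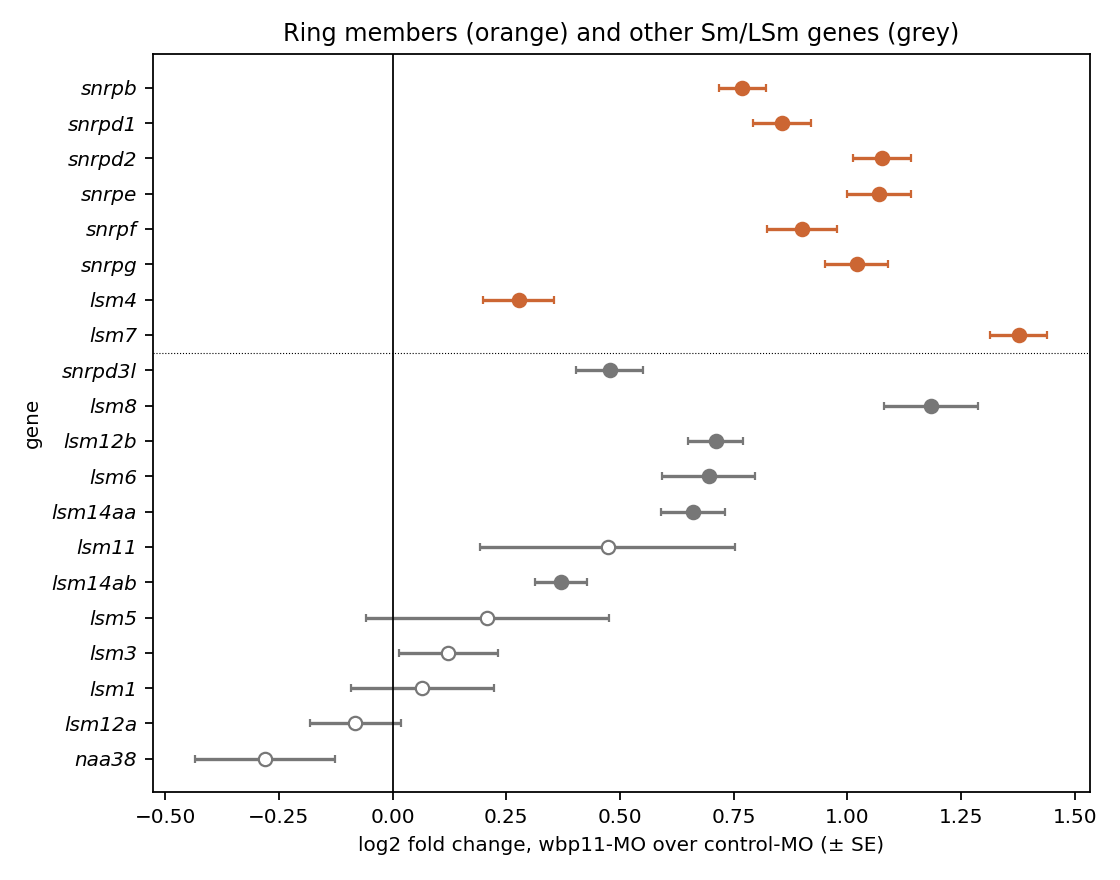
Log2 fold change of wbp11-MO over control-MO with its SE (n = 3 libraries per group), for the 8 tested members in orange and for snrpd3l and the other tested Sm and LSm genes in grey. Filled points passed the test and open points did not. The members ran from 0.28 (lsm4) to 1.38 (lsm7), and lsm8 stood highest among the grey points at 1.18.

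Per length, snrpb was the most abundant member in both groups, with 161 ± 3.85 FPKM in the controls and 261 ± 8.35 FPKM in the libraries labelled wbp11-MO (SD, n = 3 each). In the controls snrpd2 and snrpg followed at 88.9 ± 6.33 and 78.2 ± 2.01 FPKM, and these first 3 ranks did not overlap between neighbours. The next ranks, snrpe, snrpf, lsm7 and lsm4, overlapped each with its neighbour, and snrpd1 was lowest at 42.3 ± 0.61 FPKM. In the libraries labelled wbp11-MO, lsm7 had moved up to 145 ± 2.87 FPKM, between snrpg at 151 ± 15.7 and snrpe at 141 ± 3.10 FPKM, and the ranges of these neighbours overlapped. The gene lsm4 was then lowest at 62.1 ± 8.21 FPKM, overlapping snrpd1 at 72.8 ± 3.56 FPKM. The deposited lengths used for FPKM run from 589 to 1231 bases among the members with counts, and the order rests on these lengths.

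Summed over the listed Sm genes, the level was 516, 488 and 511 FPKM in the controls and 956, 908 and 892 FPKM in the libraries labelled wbp11-MO, a ratio of 1.82 between the group means. Summed over lsm4 and lsm7 it was 113, 111 and 113 FPKM against 215, 204 and 202 FPKM, a ratio of 1.84. The rise of this LSm sum lay mostly in lsm7, whose mean went from 58.4 ± 3.51 to 145 ± 2.87 FPKM (SD, n = 3 each). The mean of lsm4 went from 54.0 ± 2.16 to 62.1 ± 8.21 FPKM, with overlapping groups. The Sm sum holds almost no D3 message, because the record snrpd3 was nearly empty and snrpd3l is not a listed member. The latter stood at 56.8 ± 0.65 FPKM in the controls and 75.2 ± 2.02 FPKM in the libraries labelled wbp11-MO (SD, n = 3 each). Within the Sm sum, snrpb held 31.9% ± 1.18 in the controls and 28.5% ± 0.71 in the libraries labelled wbp11-MO (SD, n = 3 each), and its ranges did not overlap. The share of snrpd2 was 17.6% ± 0.85 in the controls and 19.4% ± 0.22 in the others, and that of snrpe was 13.96% ± 0.56 and 15.4% ± 0.78, again without overlap. The shares of snrpf, at 12.6% ± 0.985 and 12.4% ± 0.28, and of snrpg, at 15.5% ± 0.81 and 16.4% ± 1.16, overlapped. The share of snrpd1 was 8.37% ± 0.34 and 7.92% ± 0.15, with the lowest control at 8.14% and the highest of the others at 8.03%. These shares are a description without a test. They are parts of one sum and so depend on each other. How often shares within other sums of genes separate the groups was not counted.

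**Figure D3:**
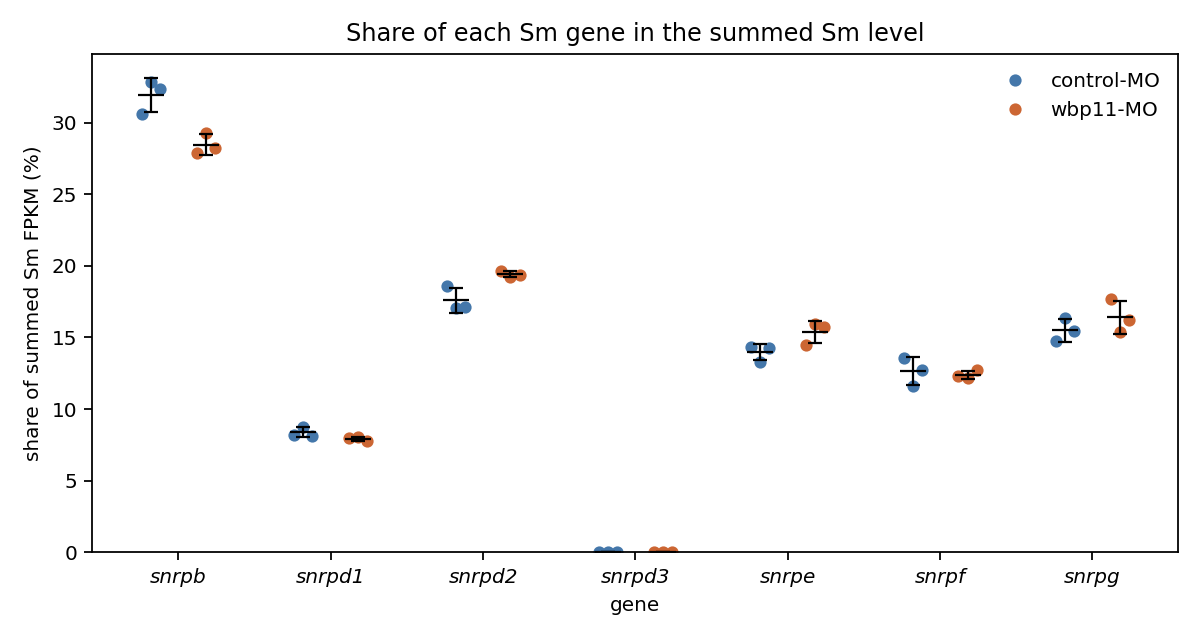
Share of each Sm gene in the summed FPKM of the listed Sm genes, in percent, for every library. The sum leaves out snrpd3l. Points are libraries, bars are means ± SD (n = 3), control-MO in blue and wbp11-MO in orange. The share of snrpb averaged 31.9% in control-MO and 28.5% in wbp11-MO, and that of snrpd2 averaged 17.6% and 19.4%.

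Ratios of genes within a library do not depend on how libraries are scaled, and 6 of them were compared, chosen after the values were seen. With 3 libraries per group the smallest p that an exact two-sided permutation test can give is 0.10, so none could pass 0.05. In FPKM, lsm7 over lsm4 was 1.11, 0.969 and 1.18 in the controls and 2.05, 2.29 and 2.73 in the libraries labelled wbp11-MO (exact permutation p = 0.10, adjusted p = 0.12 over the 6 ratios). The subunit that marks the nuclear ring, lsm8, over the one that marks the cytoplasmic ring, lsm1, was 2.50, 2.87 and 1.75 in the controls and 4.73, 5.37 and 4.87 in the others (exact permutation p = 0.10, adjusted p = 0.12). Neither of these ratios overlapped between the groups.

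Other ratios paired Sm subunits with each other. The ratio of snrpb to snrpd3l was 2.81, 2.79 and 2.91 in the controls and 3.46, 3.64 and 3.33 in the libraries labelled wbp11-MO. The ratio of snrpd2 to snrpd1 was 2.26, 1.95 and 2.10 against 2.47, 2.40 and 2.50. The ratio of snrpf to snrpe was 0.949, 0.872 and 0.891 against 0.849, 0.765 and 0.807. None of these 3 ratios overlapped between the groups, each with an exact permutation p of 0.10 (adjusted p = 0.12 over the 6 ratios). How often ratios of other gene pairs separate the groups likewise was not counted. The ratio of snrpg to snrpe did overlap, with 1.03, 1.23 and 1.08 against 1.22, 0.965 and 1.03 (exact permutation p = 0.50).

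The other genes of the family were divided. Of 14 further Sm and LSm names, 12 had a row and 11 were tested. Of these, 5 rose, none fell and 6 were not called, with a median log2 fold change of 0.37. The 5 were lsm6, lsm8, lsm12b, lsm14aa and lsm14ab, and among them only lsm6 and lsm8 stand for subunits of the LSm rings. Beside this and every later list, 30.5% of all tested genes were called higher and 31.2% lower. The gene lsm8 (chromosome 4, 9536860 to 9539424) stood at 18.3, 16.7 and 15.4 CPM in the controls and at 41.1, 39.4 and 34.0 CPM in the libraries labelled wbp11-MO. Its groups lay far apart, and its log2 fold change was 1.18 ± 0.10 (SE; adjusted p = 1.6e-11 in edgeR). The gene lsm12b, whose protein has an LSm domain but is not a subunit of these rings, rose by 0.71 ± 0.06 on the log2 scale (SE; adjusted p = 1.5e-11 in edgeR). Its relative lsm12a, looked at after its values were seen, was not called, at -0.08 ± 0.10 (SE; adjusted p = 0.49 in edgeR).

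The remaining ring subunits were looked at after their values were seen. The gene lsm6 rose by 0.69 ± 0.10 (SE; adjusted p = 6.0e-07 in edgeR). Its whole span lies within that of an antisense record, BX324156.1, which had 1 count over the controls and 22 over the other libraries. The strand setting is not known, and whether reads of the 2 records were mixed was not tested. The gene lsm1 (chromosome 8, 44613135 to 44618213) stood at 10.7, 8.53 and 12.8 CPM in the controls and at 12.7, 10.7 and 10.22 CPM in the libraries labelled wbp11-MO. Those values overlapped fully, and the log2 fold change was 0.07 ± 0.16 (SE; adjusted p = 0.74 in edgeR). The genes lsm3 and lsm5 had log2 fold changes of 0.12 ± 0.11 and 0.21 ± 0.27 (SE; adjusted p = 0.34 and 0.51 in edgeR). The record of lsm5 held only 37 to 56 counts per library. It shares 455 bases with an antisense record, psme2, which had 99 counts over the controls and 88 over the other libraries. Whether counted reads fell in those shared bases was not tested either. Of the genes common to both LSm rings, lsm4, lsm6 and lsm7 were thus called higher and lsm3 and lsm5 were not.

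Other proteins belong to single snRNPs. Of 5 genes for proteins of the U1 and U2 particles, 5 rose, with a median log2 fold change of 0.49. The gene snrpa1, for the U2 protein A', rose from 42.1 ± 1.701 to 70.6 ± 1.90 CPM (SD, n = 3), or on the log2 scale by 0.74 ± 0.07 (SE; adjusted p = 6.9e-11 in edgeR). The gene snrpc, for the U1 protein C, rose from 38.6 ± 1.705 to 55.1 ± 2.22 CPM, by 0.51 ± 0.07 on the log2 scale (SE; adjusted p = 5.0e-07 in edgeR).

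Sm rings are built in the cytoplasm by the SMN complex on substrates prepared by the methyltransferase Prmt5 and the chaperone pICln. Of 13 names for these factors, 11 had a row and 10 were tested, of which 8 rose and 0 fell, with a median log2 fold change of 0.43. The gene gemin5, for the subunit that recognizes small nuclear RNAs, rose from 15.8 ± 1.82 to 39.2 ± 2.06 CPM (SD, n = 3), or on the log2 scale by 1.31 ± 0.10 (SE; adjusted p = 1.2e-12 in edgeR). The gene prmt5, whose product methylates the arginine tails of Sm proteins, rose from 36.9 ± 1.96 to 64.2 ± 3.11 CPM, by 0.80 ± 0.07 (SE; adjusted p = 5.6e-11 in edgeR). The calls of ddx20 without wbp11-MO replicate 1 and of gemin8 without control-MO replicate 1 were lost (edgeR adjusted p = 0.057 and 0.051), which left 7 genes called each time. These 2 genes, and gemin6 and gemin7, were looked at after their values were seen. The last 2 had log2 fold changes of -0.18 and -0.20 and were not called (edgeR adjusted p = 0.50 and 0.41).

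Finished cores return to the nucleus, and their RNAs had first left it. Of 9 tested genes for snRNA cap, export and import factors, 7 rose and 0 fell, with a median log2 fold change of 0.58. The exportin genes xpo1b and xpo1a rose by 1.13 ± 0.05 and 0.59 ± 0.05 on the log2 scale (SE; adjusted p = 5.6e-18 and 7.4e-11 in edgeR), and xpo1b went from 143 ± 7.61 to 313 ± 4.89 CPM (SD, n = 3). Exportin serves many other cargoes as well. The 2 uncalled genes of this list, phax and wrap53, were looked at after their values were seen. They had log2 fold changes of 0.15 and -0.11 (edgeR adjusted p = 0.18 and 0.52). The gene coil, likewise looked at, is counted among the 7 that rose.

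Of 5 genes for partners of U6 RNA, 4 rose and 0 fell, with a median log2 fold change of 0.43. The gene ssb, for the La protein that binds new U6 ends before the LSm ring does, rose from 76.5 ± 1.88 to 185 ± 13.4 CPM (SD, n = 3), or on the log2 scale by 1.28 ± 0.06 (SE; adjusted p = 6.2e-18 in edgeR). The gene sart3, for a recycling factor of U6, rose by 0.62 ± 0.07 (SE; adjusted p = 2.4e-09 in edgeR). The other 2 calls, usb1 and larp7 (edgeR adjusted p = 0.043 and 0.028), were looked at after their values were seen. Both were lost when control-MO replicate 1, control-MO replicate 3 or wbp11-MO replicate 1 was left out, where 2 genes of this list were called. Leaving out wbp11-MO replicate 3 ended that of larp7 as well, and a block for replicate number ended that of usb1 (edgeR adjusted p = 0.059), with 3 genes called.

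On the cytoplasmic side, of 8 tested genes for decapping and decay partners of the LSm1 ring, 6 rose and 0 fell, with a median log2 fold change of 0.34. The decapping cofactor genes dcp1b and edc3 rose by 0.91 ± 0.10 and 0.65 ± 0.07 on the log2 scale (SE; adjusted p = 1.7e-09 and 7.1e-09 in edgeR). The call of dcp1a, a further decapping cofactor looked at after its values were seen, was lost when the first control-MO library, or either the first or the third wbp11-MO library, was left out (edgeR adjusted p up to 0.18), which left 5 genes called. The decapping enzyme gene dcp2 and patl1, for the protein that binds the LSm1 ring directly, were looked at after their values were seen. They had log2 fold changes of -0.03 and 0.10 and were not called (edgeR adjusted p = 0.74 and 0.17). A related ring with LSm10 and LSm11 works in the U7 particle, which cuts histone messenger RNAs. No row was named lsm10. The gene lsm11, looked at after its values were seen, was not called, at a log2 fold change of 0.47 ± 0.28 (SE; adjusted p = 0.15 in edgeR). It held only 27 to 57 counts per library and shares 206 bases with an antisense record, zbtb3. That record had 494 counts over the controls and 440 over the other libraries. Of 4 tested genes for factors of histone message ends, 4 rose and 0 fell, with a median of 0.71, and slbp and casp8ap2 rose by 0.69 ± 0.08 and 0.74 ± 0.09 (SE; adjusted p = 9.6e-09 and 1.3e-08 in edgeR). The call of npat, looked at after its values were seen, was lost without wbp11-MO replicate 2 (edgeR adjusted p = 0.12), which left 3 genes called.

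**Figure D4:**
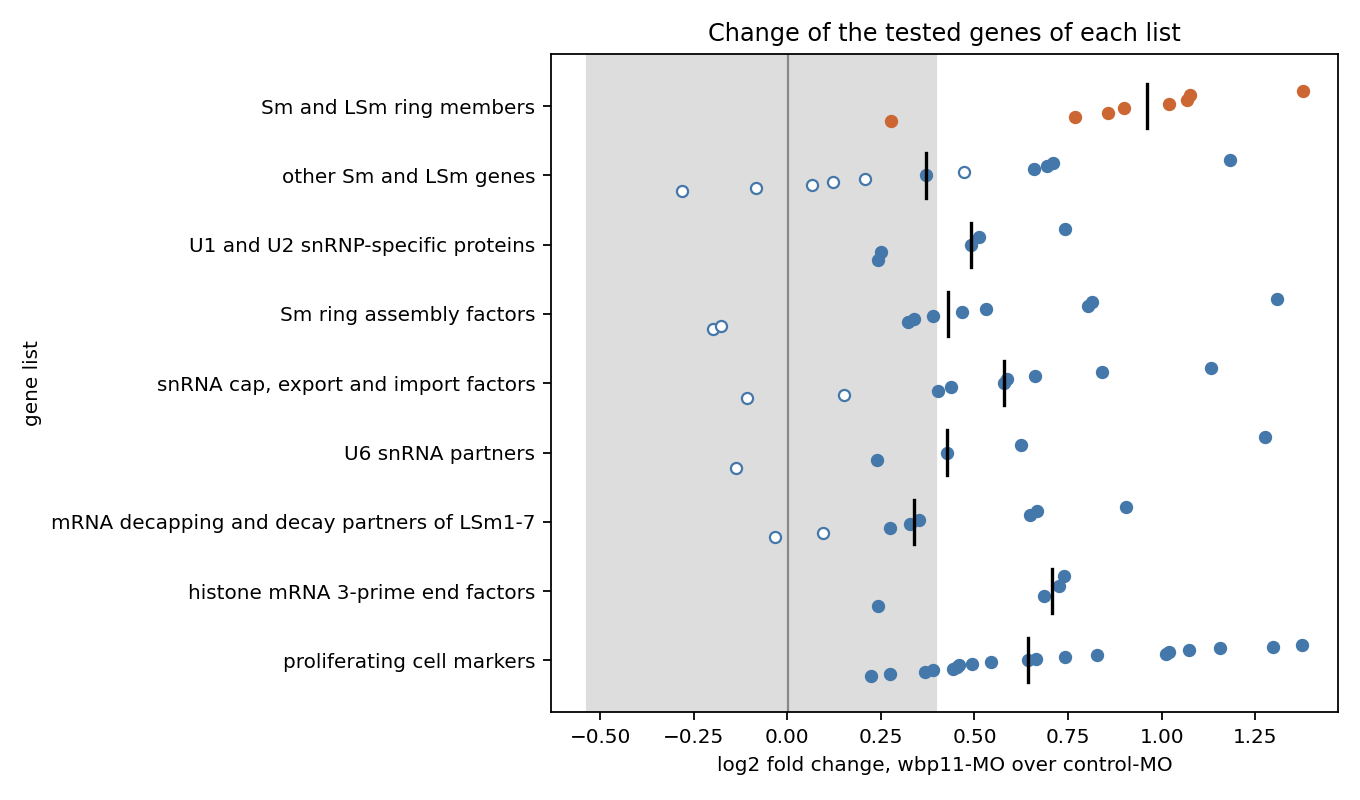
Log2 fold change of wbp11-MO over control-MO for the tested genes of each list. Members are in orange and other lists in blue, filled points passed the test, open points did not, black bars are list medians, the grey line is the median of all 20012 tested genes and the grey band runs from their lower to their upper quartile (-0.54 to 0.40). The ring members' median of 0.96 lies to the right of the band, as do 7 of the 8 members, and the medians of the other lists run from 0.34 to 0.71.

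Markers of cell types moved alongside these changes, and over all tested genes 30.5% were called higher and 31.2% lower. Of 19 tested records for markers of proliferating cells, 19 rose, with a median log2 fold change of 0.64, and their summed level ran from 1695 to 1755 CPM in the controls and from 2701 to 2759 CPM in the libraries labelled wbp11-MO. The cyclin gene ccnb1 rose most surely, by 1.37 ± 0.06 on the log2 scale (SE; adjusted p = 1.7e-18 in edgeR). Of 7 neuron markers 6 fell and 1 rose, and their summed level ran from 2069 to 2124 CPM in the controls and from 1025 to 1105 CPM in the others. Of 6 neural progenitor markers 4 rose and 1 fell, with summed levels of 537 to 553 CPM against 589 to 622 CPM. Of the other marker lists, skeletal muscle had 5 of 7 records higher and 1 lower, epidermis 2 of 5 higher and 2 lower, and red cells 4 of 5 higher and 0 lower, while 5 of 5 cartilage markers and 4 of 4 photoreceptor markers fell. The part of these cell types in the rise of the ring genes was not tested, and in whole embryos a different number of cells of a type and a different amount of RNA per cell cannot be told apart.

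**Figure D5:**
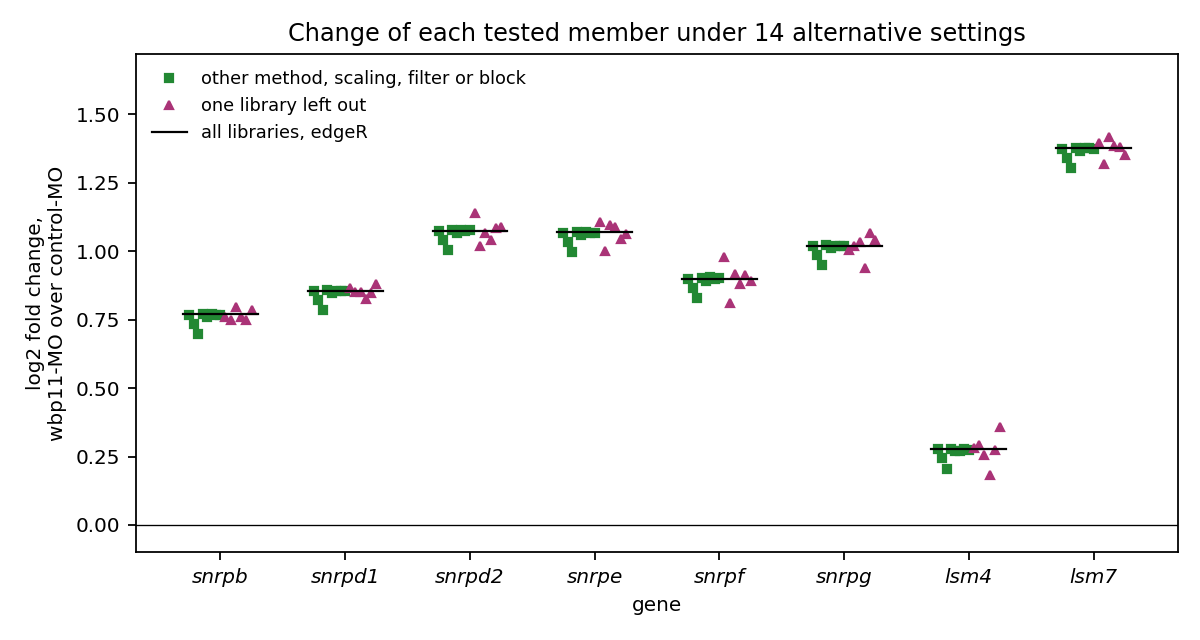
Log2 fold change of each tested member with all libraries in edgeR (black line), under other methods, scalings, filters or the replicate block (green squares), and with 1 library left out (purple triangles). All values lie above 0, and lsm4 ranges from 0.18 to 0.36 while lsm7 ranges from 1.30 to 1.42.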

How the data were processed

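Per the labels' protocols, poly(A) RNA from pools of 50 embryos was fragmented and sequenced. FastQC 0.12.1, HTSeq 2.0.5 and GRCz11 are named in the submitters' processing notes. Not given in the sources used here are the aligner, annotation release, strand setting and handling of reads shared by overlapping genes or paralogs. Per the file headers, every gene has a read count and an FPKM for each library. The deposited counts are not normalized. The deposited FPKM values, made by the authors, equal the count over gene length and column total to a largest relative difference of 5.1e-15.

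Counts were tested in R 4.3.3 with edgeR 4.0.16 (filterByExpr, TMM factors, quasi-likelihood F-test, Benjamini-Hochberg adjustment over 20012 genes, threshold 0.05), wbp11-MO against control-MO without a block. The SE is the absolute log2 fold change divided by the root of F, and CPM use TMM-adjusted totals. Levels between genes use FPKM, without a test. Replicates differed by more than sampling noise (chi-square per degree of freedom 2.59 to 3.93). The floor for a count of 0 covers counting error only. In simulated counts of this comparison over 19685 genes, the test found 41 of the 67 genes given a 1.5-fold change, 56 of the 62 given a 2-fold one and 59 of the 60 given a 4-fold one. It also called 12 of 19496 genes left as they were. In the deposited counts 61.7% of all tested genes were called. Recovery with so large a share of genes changed was not tested.

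Members and lists were matched by the table's gene names and were chosen with earlier results of these data known. All members are named. Of every other list of pathway genes, up to 2 called genes per direction with the smallest adjusted p are named, and of marker lists at most 1. Genes named outside that rule, also among the alternatives, were chosen after their values were seen. Alternatives were RLE, upper-quartile and no factors, 2 filters, a replicate block, DESeq2 1.42.0, limma-voom (limma 3.58.1) and leaving out each library. Figures were drawn with matplotlib 3.10.9. No protein or promoter sequence was used here.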

Additional observations from a re-analysis of the deposited data

How the results depend on the processing

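Of 112 values for the 8 tested members under 14 alternatives, 111 kept their direction and call, and lsm4 without wbp11-MO replicate 1 lost its call, which left 7 members called higher. With library totals 2 members had a log2 fold change of at least 1, and with 1 library left out 3 to 4 had. With upper-quartile factors snrpg fell just under that size, at 0.99. The members' median log2 fold change was 0.93 with upper-quartile factors and 0.89 with library totals, and ran from 0.91 to 0.99 with 1 library left out. With TMM-scaled values per length, the ratio of summed levels was 1.91 for the Sm and 1.93 for the LSm members, and with 1 library left out it ran from 1.78 to 1.84 and from 1.80 to 1.86. Among the other Sm and LSm genes, naa38 was called lower with library totals (edgeR adjusted p = 0.0498) but not with no filter (edgeR adjusted p = 0.10). The 1 gene called lower with no filter was lsm14b, which the main filter removed. It had 5, 0 and 8 counts in the controls and 1, 0 and 0 in the other libraries. With 1 library left out, 0 to 1 gene was called lower. That call was naa38 without control-MO replicate 2, at a log2 fold change of -0.42 (edgeR adjusted p = 0.020). Of the U6 partners, 2 were called higher with upper-quartile factors, library totals and DESeq2, and 2 to 4 with 1 library left out. Of the assembly factors 7 to 8, of the decay partners 5 to 6 and of the histone factors 3 to 4 were called higher with 1 library left out, and library totals ended the calls of dcp1a and npat. Uncalled genes, looked at for this reason, turned in sign: lsm1 was -0.0038 with library totals and ran from -0.068 to 0.22 with 1 library left out (-0.042 when that was wbp11-MO replicate 1), gemin6 ran from -0.34 to 0.11 and wrap53 from -0.20 to 0.018. The causes were not tested. Of 784 values for the 56 other genes followed, 753 kept direction and call.

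Same-numbered libraries did not deviate together (correlations of -0.022, -0.038 and 0.0098), so the replicate numbers were not taken as pairs. With the replicate block all 8 members stayed called, 3 of the U6 partners were called higher, and over all genes 5977 were higher and 6119 lower, against 6105 and 6244 without it. The records of snrpd3, lsm5 and lsm11 had few counts, and the cause was not tested.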
